A study of Mus musculus with 2 samples.

Results

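The genes described here encode the semaphorins, a family of guidance proteins, and their receptors, the plexins and neuropilins. Members were the protein-coding genes with a symbol of the form Sema3 to Sema7 plus a letter from a to g, Plxn plus a letter from a to d and a digit, or Nrp1 or Nrp2. The rule uses names alone and found 31 genes, of 22028 protein-coding and 55536 annotated genes in all: 20 semaphorins, 9 plexins and 2 neuropilins. Their levels were measured by total RNA-seq of the hippocampus of female B6CASTF1/J mice aged 14 days, an F1 hybrid of C57BL/6J and CAST/EiJ parents. The series holds 1 group of 2 libraries, named biological replicates 1 and 2 in the labels, each listing 3 females and 300 ng of RNA. The labels call the tissue a layer of the hippocampus without saying which layer, and give both libraries the same donor record. No second condition, age, sex or strain was analysed, so the data give levels, isoforms and the spread between libraries, and no p-value is printed.

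Semaphorins share a sema domain, through which they bind plexins. Plexins span the membrane and act inside the cell on small GTPases, which changes the cytoskeleton of a growing axon or dendrite. Secreted class 3 semaphorins mostly need a neuropilin beside a plexin-A, whereas classes 4 to 7 are held at the membrane and bind plexins directly. In the hippocampus this system is known for the layered targeting and pruning of mossy fibres, the axons of dentate granule cells, and for the shaping of dendritic spines.

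The libraries held 33465393 expected counts (estimated reads per gene) in replicate 1 and 32879872 in replicate 2, and the members took 99553 and 97296 of them. Levels are given in TPM, which is scaled for depth and transcript length, so that genes can be compared with each other. Markers of CA1, CA3 and dentate granule neurons reached 1 TPM in both libraries for all 6 genes of each list. The libraries stood apart in other tissue. Summed TPM of 8 choroid plexus markers was 1437 in replicate 1 and 9.86 in replicate 2, with all 8 higher in replicate 1 and none at 0. For 7 fibroblast and meningeal markers the sums were 194 and 122, with 7 of 7 higher in replicate 1 in TPM, and for 6 dentate granule markers they were 117 and 145, with 1 of 6 higher in replicate 1. In tissue RNA, fewer cells of a type and less RNA per cell cannot be told apart.

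Every member was detected. Over all their transcripts, all 31 reached 1 TPM in both libraries, a share of 100%. This compares with 58.6% of 22015 nuclear protein-coding genes and 35 of 39 genes of the other guidance families (Eph receptors, ephrins, Slits, Robos, netrins and netrin receptors). Transcripts with a complete coding sequence alone, a measure chosen after seeing the data, gave Sema3a 0.64 and 0.84 TPM in replicates 1 and 2. They gave Sema3f 0.87 and 0.45 TPM, and Sema3b 1.64 and 0.14 TPM. The median member level was 20.1 ± 3.19 TPM (SD of the libraries' medians, n = 2), against 14.9 TPM over the 12892 protein-coding genes detected. With undetected genes included, the median was 9.54 TPM over the 39 other guidance genes and 3.525 TPM over the 22015 nuclear protein-coding genes. At least 10 TPM was reached by 23 of the 31 members (74.2%), against 36.6% of nuclear protein-coding genes and 62.6% of those detected. The family's levels ran from Sema4d, above 89.5% of detected protein-coding genes, to Sema3a, above 2.20%. These are descriptions of one tissue at one age, and no test sets the members apart from other genes.

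**Figure D1:**
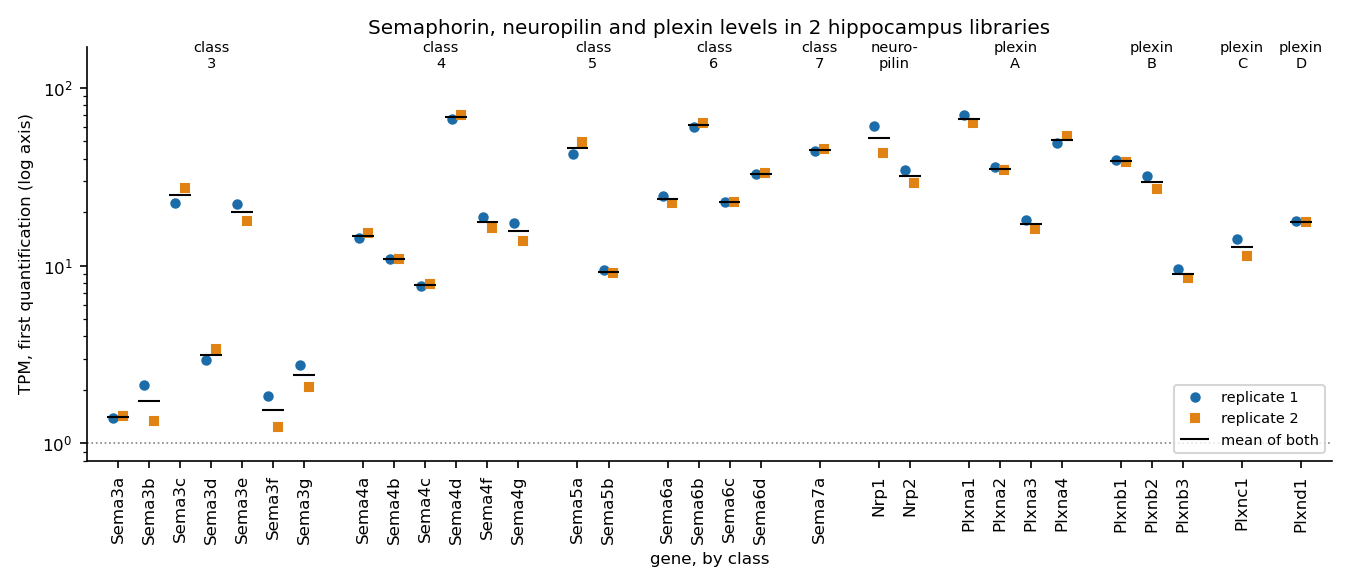
TPM of each semaphorin, neuropilin and plexin gene on a log axis, with replicate 1 as circles, replicate 2 as squares and the mean as a line; the dotted line marks 1 TPM. Classes 4 to 7 and the receptors lie between 7 and 71 TPM, while 5 of the 7 class 3 genes lie under 4 TPM in both libraries.

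Among the secreted class 3 semaphorins, Sema3c and Sema3e stood far above the other 5. Sema3c, an attractant or repellent that acts through both neuropilins, had 22.6 TPM in replicate 1 and 27.4 TPM in replicate 2. Sema3e, which differs from its class in binding Plxnd1 without a neuropilin, had 22.4 and 17.9 TPM. Sema3c lay above Sema3e in both libraries, in replicate 1 by a margin of under 0.5 TPM.

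The other class 3 genes all lay under 4 TPM. Sema3d had 2.93 TPM in replicate 1 and 3.38 TPM in replicate 2, and Sema3g, a ligand of Nrp2, had 2.77 and 2.09 TPM. Sema3b had 2.14 and 1.33 TPM, Sema3f had 1.86 and 1.23 TPM, and Sema3a had 1.39 and 1.42 TPM. Sema3a and Sema3f are the classical repellents that signal through Nrp1 and Nrp2, and their mean TPM was the lowest of all members. Sema3a, Sema3b and Sema3f were not separated by these libraries: in replicate 2 Sema3b lay below Sema3a, and in the second quantification, made from the reads without a genome alignment, Sema3b (2.42 TPM) lay below Sema3f (2.60 TPM). The counts behind them were small: 102 and 122 reads for Sema3a, 138 and 59 for Sema3b, and 99 and 59 for Sema3f.

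Class 3 genes on chromosome 5 differed in level. On its forward strand in mm10, between positions 12383385 and 17730268, lie Sema3d, Sema3a, Sema3e and Sema3c, in this order. They are not evenly spaced, as Sema3e ends at 14256689 and Sema3c starts at 17574281. In that order their levels were 3.16 ± 0.318 TPM (Sema3d), 1.41 ± 0.0212 TPM (Sema3a), 20.1 ± 3.19 TPM (Sema3e) and 25.01 ± 3.37 TPM (Sema3c; SD, n = 2). The second pair lay above the first in both libraries. Sema3b and Sema3f lie close together on chromosome 9, and both were low.

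Class 4, membrane-spanning semaphorins with an immunoglobulin domain, held the highest member of the family by TPM. Sema4d, a ligand of Plxnb1, had 66.9 TPM in replicate 1 and 70.6 TPM in replicate 2, though much of this came from a short transcript described with the isoforms. Sema4f had 18.9 and 16.4 TPM, Sema4g 17.4 and 13.8 TPM, and Sema4a 14.4 and 15.2 TPM. In the first quantification these 3 genes lay within a narrow band. In it the libraries of Sema4f overlapped those of Sema4g, and those of Sema4g overlapped Sema4a. The second quantification put Sema4a first, with means of 29.4 TPM, 28.7 TPM for Sema4f and 22.5 TPM for Sema4g. On complete coding transcripts only, Sema4f had 15.8 TPM, Sema4g 11.1 TPM and Sema4a 5.595 TPM. Over all transcripts in the first quantification, Sema4b had 10.9 TPM in both libraries. Sema4c, a ligand of Plxnb2, was the lowest of its class with 7.65 and 7.86 TPM. In the second quantification it did not separate from Sema4b, with means of 16.8 TPM for Sema4c and 16.7 TPM for Sema4b.

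Class 5 semaphorins carry thrombospondin repeats outside the cell. Sema5a, which limits synapse formation on dentate granule cells through Plxna2, had 42.6 TPM in replicate 1 and 49.6 TPM in replicate 2. Its paralogue Sema5b had 9.43 and 9.07 TPM, below Sema5a in both libraries.

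Class 6, membrane-spanning semaphorins that can also act as receptors, had all 4 genes above 20 TPM. Sema6b, a repellent for mossy fibres that bear Plxna4, had 60.7 TPM in replicate 1 and 63.8 TPM in replicate 2. Sema6d, a ligand of Plxna1, had 32.6 and 33.2 TPM. Sema6a, which acts through Plxna2 and Plxna4, had 24.8 and 22.5 TPM, and Sema6c had 22.9 TPM in both libraries. Sema6b stood above Sema6d, and Sema6d above both Sema6a and Sema6c, with no overlap between libraries. Sema7a, the GPI-anchored class 7 semaphorin that binds Plxnc1 and integrin beta 1, had 44.2 and 45.4 TPM.

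By class, class 6 held 32.8% ± 0.115 of all semaphorin TPM and class 4 held 31.3% ± 0.574 (SD, n = 2). Classes 3, 5 and 7 held 12.8% ± 0.364, 12.8% ± 0.955 and 10.4% ± 0.0984. In the second quantification class 4 came first with 33.8% and class 6 second with 32.6%, so the order of these classes depends on the method. From protein-coding transcripts only, class 6 held 33.8% and class 4 held 29.5%. In reads, not divided by length, classes 3 to 7 held 15.9%, 20.9%, 23.6%, 31.7% and 7.94%, with class 4 below class 5.

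Of the co-receptors for class 3 semaphorins and for VEGF, Nrp1 exceeded Nrp2 in both libraries. Nrp1 had 60.8 TPM in replicate 1 and 43.3 TPM in replicate 2, and Nrp2 had 34.5 and 29.2 TPM. The spread of Nrp1 was the widest among members above 10 TPM, with a coefficient of variation of 23.9%. Nrp2 made up 38.2% ± 2.92 of neuropilin TPM (SD, n = 2). In reads, not divided by length, the order turned, with Nrp2 over Nrp1 at 1.12.

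Plexin-A genes made up 61.3% ± 0.979 of plexin TPM, plexin-B genes 27.8% ± 0.622, Plxnd1 6.35% ± 0.198 and Plxnc1 4.56% ± 0.554 (SD, n = 2). Plxna1 had 70.4 TPM in replicate 1 and 63.9 TPM in replicate 2 and was the highest receptor. Plxna4, the plexin through which Sema3a and Sema6 proteins act on hippocampal axons and dendrites, had 49.0 and 53.4 TPM. Plxna2, which takes part in placing mossy fibres in CA3, had 35.8 and 34.5 TPM. The 3 genes kept this order in both libraries. Plxna3, the partner of Nrp2 in Sema3f signalling, was the lowest of its class with 18.2 and 16.1 TPM.

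Among the plexin-B genes, Plxnb1 had 39.3 TPM in replicate 1 and 38.5 TPM in replicate 2, and Plxnb2 had 32.1 and 27.2 TPM. Plxnb3 was lowest at 9.52 and 8.50 TPM. The level of Plxnb2 depended on the method: once both quantifications were rescaled to the sum of nuclear protein-coding genes, its second value was 0.565 of its first, the farthest of all members. For Plxnd1, the receptor of Sema3e, that quotient was 0.722, and the deposited levels were 17.8 and 17.6 TPM. Plxnc1, the receptor of Sema7a, had 14.2 and 11.3 TPM. Across the members, 28 of 31 stayed within 1.3-fold between the rescaled quantifications, and Sema4c (1.32) was the other exception.

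Read in order of level, the members formed a continuum more than a ranking. Of the 30 neighbouring pairs, 18 overlapped between libraries. Breaks without overlap included that between Sema4c and Sema3d, below which lay only class 3 genes. Those between Plxna1 and Sema6b, Sema7a and Plxnb1, Plxnc1 and Sema4b, and Plxnb3 and Sema4c were lost in the second quantification. The lowest Plxna1 library had 63.87 TPM and the highest Sema6b library 63.83 TPM, and in the second quantification Sema6b came first (means 99.7 and 97.8 TPM). There the libraries of Sema7a (64.9 and 67.3 TPM) overlapped those of Plxnb1 (58.1 and 65.2 TPM). Those of Plxnc1 (20.9 and 16.6 TPM) overlapped those of Sema4b (16.9 and 16.5 TPM). Sema4c (15.7 and 18.0 TPM) lay above Plxnb3 (13.8 and 12.1 TPM) there.

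Known ligand and receptor pairs differed widely in balance. Summed over genes, semaphorins reached 433 ± 4.63 TPM and their receptors 362 ± 26.9 TPM, a ratio of 1.197 ± 0.102 (SD, n = 2). In reads, which favour the long plexin messages, the ratio was 0.707, on the other side of 1. The classical class 3 ligands lay far below their receptors: Sema3a over Nrp1 was 0.0278 ± 0.00704, Sema3f over Nrp2 was 0.0480 ± 0.00837 and Sema3f over Plxna3 was 0.0896 ± 0.0183 in TPM. In reads the quotients with Sema3f were lower still, at 0.0176 for Nrp2 and 0.0549 for Plxna3. On complete coding transcripts only, an alternative chosen after seeing the data, Sema3a over Nrp1 was 0.0182 and Sema3f over Nrp2 was 0.0224. Sema3e over Plxnd1 was 1.14 ± 0.172 in TPM, 1.46 in the second quantification and 1.48 in reads.

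The membrane-bound ligands in the pairs below lay closer to their receptors than Sema3a and Sema3f did, or above them. This contrast does not cover class 3 as a whole. Sema3e over Plxnd1, at 1.14, lay within the range of the membrane-bound pairs. Sema3c was not paired, and had 22.6 TPM in replicate 1 and 27.4 TPM in replicate 2. In the same order Nrp1 had 60.8 and 43.3 TPM, and Nrp2 had 34.5 and 29.2 TPM. Sema7a over Plxnc1 was 3.57 ± 0.641, with 3.11 in replicate 1 and 4.02 in replicate 2, and 1.74 in reads. Sema4d over Plxnb1 was 1.77 ± 0.0912, Sema5a over Plxna2 was 1.31 ± 0.174 and Sema6b over Plxna4 was 1.22 ± 0.0296. Below 1 lay Sema6a over Plxna2 (0.673 ± 0.0300), Sema6d over Plxna1 (0.491 ± 0.0397), Sema6a over Plxna4 (0.464 ± 0.0600) and Sema4c over Plxnb2 (0.264 ± 0.0360). The quotient of Sema4c with Plxnb2 depended on the method, at 0.614 in the second quantification. On complete coding transcripts only, Sema4d over Plxnb1 was 1.12 and Sema5a over Plxna2 was 1.05. Sema5a over Plxna2 was 1.14 in the second quantification and 1.10 in reads. In reads the quotients for Sema4d with Plxnb1 and Sema6b with Plxna4 fell below 1, at 0.740 and 0.351. Sema6a over Plxna2, Sema6d over Plxna1 and Sema6a over Plxna4 were 0.345, 0.289 and 0.192 in reads. A ratio of messages in a tissue says nothing of whether one cell makes both partners.

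Genes known to act with the family were counted from lists of known partners. All 29 signalling genes downstream of plexins and neuropilins were detected, with a median of 52.1 TPM. Highest were Cfl1 (739 ± 28.2 TPM), the actin-severing cofilin, Dpysl2 (300 ± 13.4 TPM), the collapsin response mediator CRMP2, and Mical2 (246 ± 6.48 TPM), an enzyme that oxidises actin. Fes, a kinase tied to Sema3a signalling, was lowest with 2.41 ± 0.0283 TPM.

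Of 15 further co-receptors, 11 were detected. The cell adhesion molecules Nrcam (193 ± 0.841 TPM), L1cam (83.5 ± 12.7 TPM) and Chl1 (75.8 ± 1.58 TPM), which join neuropilins in class 3 receptors, led the list, and Timd2, a Sema4a receptor of immune cells, was lowest at 0.035 TPM. Of 8 other ligands of neuropilins, 6 were detected. Vegfa (36.4 ± 2.64 TPM) and Vegfb (29.6 ± 0.460 TPM) came first, then Tgfb1 (3.97 ± 0.615 TPM), and Vegfd was lowest with 1.04 ± 0.219 TPM (SD, n = 2). Vegfa, which binds Nrp1, was thus above every class 3 semaphorin in both libraries.

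The members have 226 annotated transcripts, of which 100 are protein-coding and 73 have a complete coding sequence. Complete coding transcripts held 77.4% ± 0.526 of the members' TPM, retained-intron transcripts 11.6% ± 1.11, coding transcripts with an incomplete end 6.09% ± 0.660, processed transcripts 3.78% ± 0.176 and transcripts annotated for nonsense-mediated decay 1.21% ± 0.256 (SD, n = 2). By mean TPM of the libraries, the same transcript led in both quantifications for 31 of 31 members, and it was protein-coding for 30. Transcript shares are model estimates from reads that often fit several transcripts, and short transcripts can reach a high TPM on few reads.

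**Figure D2:**
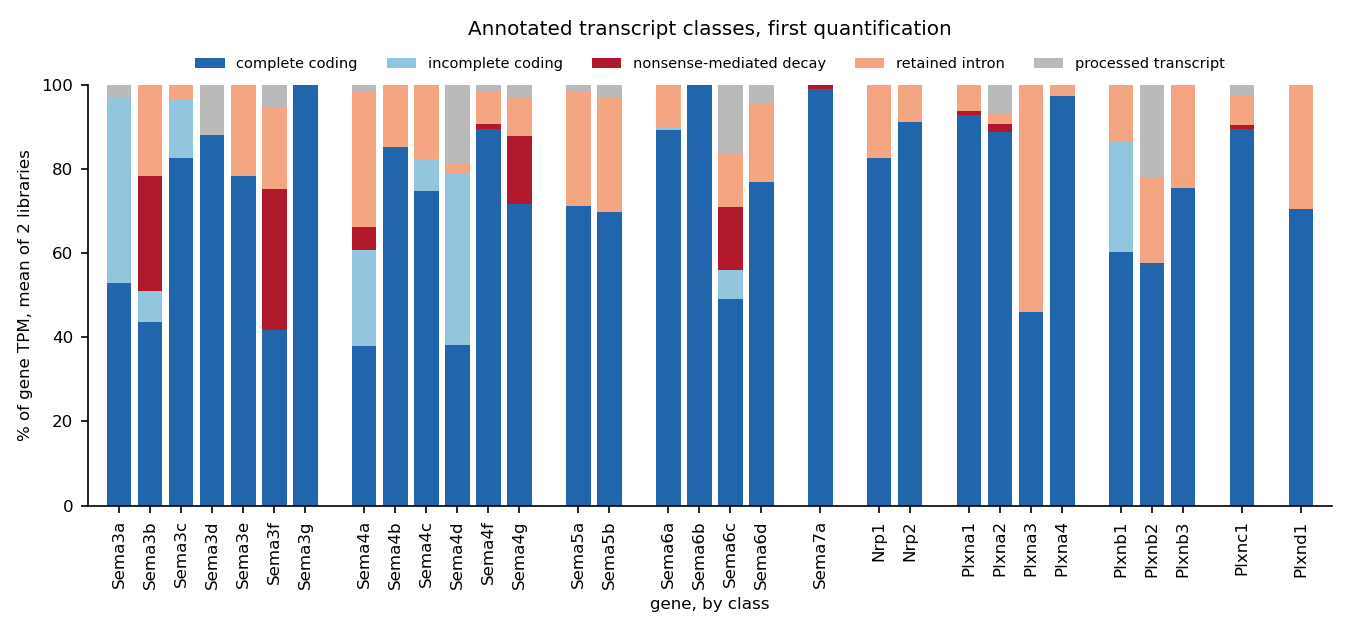
Percent of each gene's TPM in 5 annotated transcript classes, mean of both libraries, first quantification. Sema3g and Sema6b lie wholly in complete coding transcripts, whereas Plxna3 has 54.1% in retained-intron transcripts and Sema4d has 40.8% in an incomplete coding transcript.

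The exception was Sema3f, whose leading transcript Sema3f-208 is annotated for nonsense-mediated decay and held 29.1% ± 4.41 of its TPM. By replicate 2 alone Sema3f was led by a coding transcript, and Sema3b was the exception, with 45.9% in the decay transcript Sema3b-206 there and 8.41% in replicate 1. Both genes rest on few reads. The leading transcript held under 50% in 11 members. Apart from Sema3f these were, by the mean of both libraries, Nrp2-205 (37.6%), Plxna3-201 (45.9%), Plxnb2-202 (43.0%), Sema3b-205 (29.2%), Sema4a-201 (26.8%), Sema4c-208 (43.0%), Sema4d-204 (40.8%), Sema6a-201 (40.3%), Sema6c-201 (48.5%) and Sema6d-208 (28.3%). Sema3b-205 held 58.4% in replicate 1 and 0% in replicate 2. Sema4c was led by Sema4c-202 in replicate 1 and by Sema4c-208 in replicate 2.

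Sema4d changed place when only complete coding transcripts were counted. Its leading transcript Sema4d-204 is 1249 bases long, with an annotated coding part of 185 codons that lacks an end, and it had 27.8 TPM in replicate 1 and 28.3 TPM in replicate 2. The 3 complete coding transcripts, of 861 codons each, together had 26.8 and 25.7 TPM. By complete coding TPM, Sema4d came 9th among the members, and Sema6b (62.2 TPM), Plxna1 (62.2 TPM) and Plxna4 (49.8 TPM) came first. Complete coding transcripts also made up under 50% of Plxna3 (46.2%), Sema6c (49.0%), Sema3f (42.7%) and Sema4a (37.9%) when the libraries' TPM were pooled. This comparison was chosen after seeing the data.

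**Figure D3:**
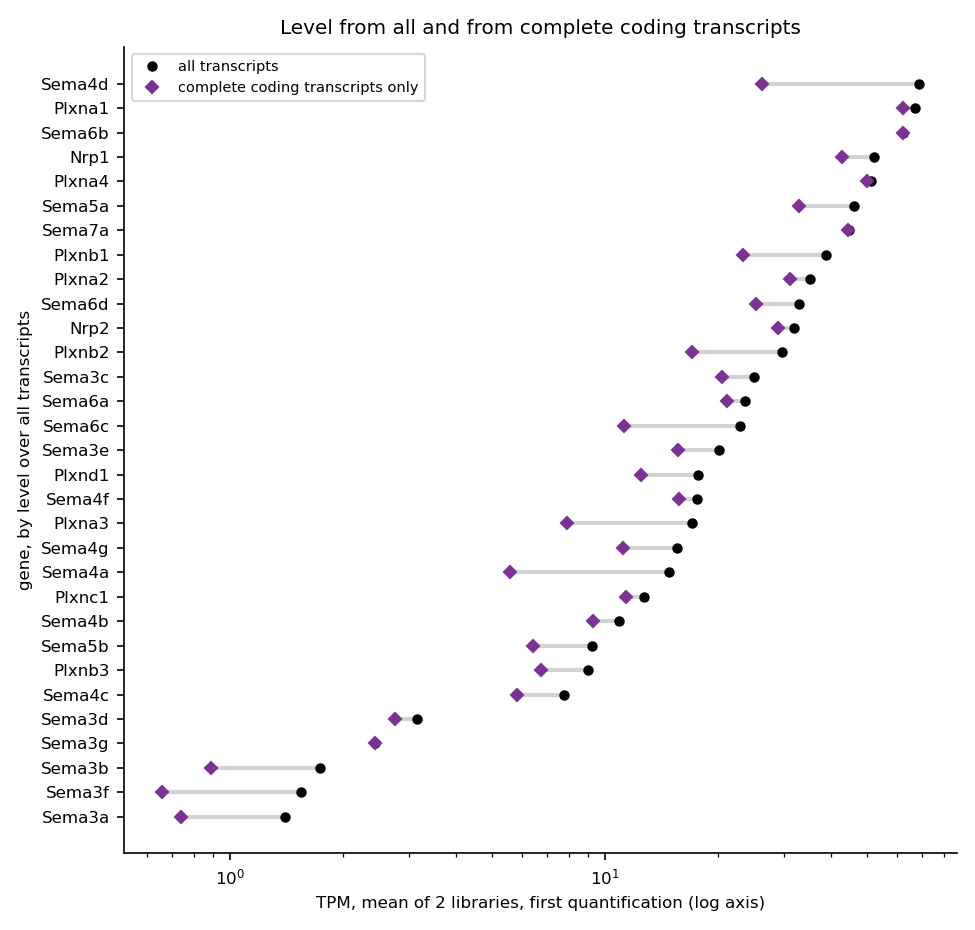
Mean TPM of each member over all transcripts (circles) and over complete coding transcripts only (diamonds), on a log axis. Sema4d falls to 26.2 TPM on complete coding transcripts, against 68.8 TPM over all transcripts, while Sema6b and Sema7a barely move.

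Retained-intron transcripts were annotated for 27 members and held a median of 14.8% of their TPM, against 10.8% over the 7500 detected protein-coding genes that have such a transcript. In the second quantification these medians were 11.9% and 11.4%, so the difference nearly vanished. Plxna3 was highest, with 50.2% in replicate 1 and 57.9% in replicate 2. Sema4a had 29.1% and 35.3%, Plxnd1 33.1% and 25.8%, Sema5a 29.1% and 25.5%, and Sema5b 29.8% and 24.3%. The second quantification gave Plxna3 50.9%, Sema5b 24.4% and Sema5a 19.7%, but only 15.7% for Sema4a and 10.4% for Plxnd1. For Plxnb2, complete coding transcripts held 57.7% ± 0.724 in the first quantification and 92.5% ± 3.02 in the second (SD, n = 2).

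Alternative coding segments are described first for Nrp2. Its 6 complete coding transcripts use either of 2 last coding exons and may carry 1 or both of 2 inserts before the last exon. Neuropilin-2 is known in forms that differ in their membrane-spanning and cytoplasmic parts. The sequences below, read from GENCODE M21 transcripts on the forward strand of mm10, are shown because the inserts and ends join the same upstream exon; capitals mark the insert, or the first 60 bases of each last coding exon, and lower case the flanking coding bases. They are the insert of 15 bases at chr1:62786302-62786316, an extension of a coding exon, the insert of 51 bases at chr1:62812534-62812584, a coding exon of its own, and the starts of the upstream end at chr1:62795709-62795768 and of the downstream end at chr1:62815333-62815392.
Insert of 15 bases: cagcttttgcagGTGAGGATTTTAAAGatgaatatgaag
Insert of 51 bases: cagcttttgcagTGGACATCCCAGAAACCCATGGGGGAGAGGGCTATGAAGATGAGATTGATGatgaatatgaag
Upstream end: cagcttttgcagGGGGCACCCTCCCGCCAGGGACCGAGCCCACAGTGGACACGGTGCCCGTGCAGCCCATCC
Downstream end: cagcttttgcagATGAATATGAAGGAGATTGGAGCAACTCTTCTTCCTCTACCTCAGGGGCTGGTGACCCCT
Both inserts keep the reading frame, adding 5 and 17 codons.

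The downstream end of Nrp2 was used in 55.9% of complete coding TPM in replicate 1 and 58.9% in replicate 2, and the upstream end in 44.1% and 41.1%. The second quantification placed the downstream end at 55.3% and 59.5%. The downstream end was thus the more used in both libraries and by both methods. Most Nrp2 message carried no insert: 71.2% and 71.5%, from Nrp2-205 (901 codons, upstream end) and Nrp2-204 (909 codons, downstream end). The insert of 51 bases was in 18.6% and 16.8%, and that of 15 bases in 11.3% and 12.3%.

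The share with an insert was also taken within each end. Of the TPM with the downstream end, 30.9% ± 3.33 carried the insert of 51 bases and 18.5% ± 2.44 that of 15 bases (SD, n = 2). With the upstream end, no annotated complete transcript has the insert of 51 bases, so its absence there follows from the annotation. The insert of 15 bases was estimated there at 0% in replicate 1 and 5.77% in replicate 2, with a mean of 10.1% in the second quantification. Nrp2-206, which carries both inserts, held 1.10% and 0.519%.

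Sema6d has 8 complete coding transcripts that differ by 4 alternative coding segments. These lie on the forward strand of chromosome 2 of mm10: 39 bases at chr2:124660244-124660282 and, farther on, 57 bases at chr2:124660705-124660761, a whole coding exon. They are followed by 156 bases at chr2:124662204-124662359 and by 12 bases at chr2:124662360-124662371 that extend the same exon. All 4 are whole numbers of codons long, and the 3 shorter ones are shown, with the segment in capitals, because their shares are given next.
Segment of 39 bases: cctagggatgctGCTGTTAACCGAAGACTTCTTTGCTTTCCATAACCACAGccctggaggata
Segment of 57 bases: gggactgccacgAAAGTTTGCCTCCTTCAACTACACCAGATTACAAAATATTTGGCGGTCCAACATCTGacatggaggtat
Segment of 12 bases: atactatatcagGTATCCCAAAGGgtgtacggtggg
The 156-base exon adds 52 codons.

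The 39-base segment of Sema6d was in 15.7% of complete coding TPM in replicate 1 and 10.5% in replicate 2, and the 57-base exon in 37.5% and 41.0%. The 156-base exon was in 52.1% and 46.8%, and its 12-base extension in 48.9% and 35.4%. In the second quantification these shares were 19.8% and 14.4%, 32.7% and 36.5%, 50.2% and 42.4%, and 41.9% and 28.0%, in the same order of segments. The short form Sema6d-208, of 998 codons, led with 28.3% ± 6.96 of the gene's TPM, followed by Sema6d-206, of 1073 codons, with 18.0% ± 1.21 (SD, n = 2). The second quantification also had Sema6d-208 first, at 24.5%, but split the other forms differently, giving Sema6d-206 9.48% and Sema6d-205 14.2%, where the first gave Sema6d-205 1.502%.

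**Figure D4:**
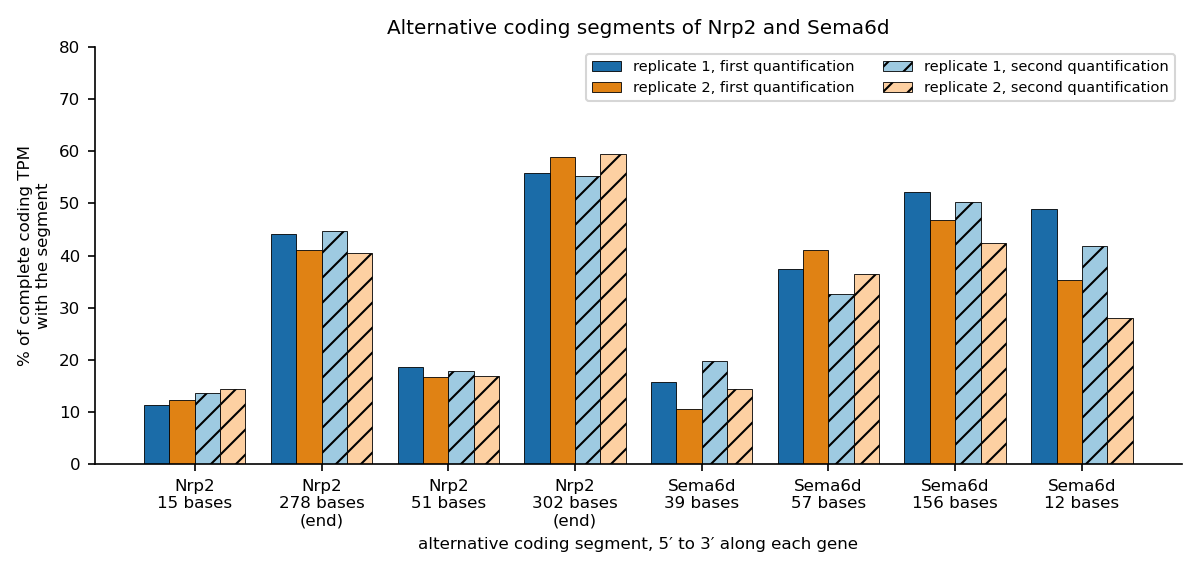
Percent of complete coding TPM that carries each alternative coding segment of Nrp2 and Sema6d, per library and quantification. For Nrp2 the downstream end of 302 coding bases exceeds the upstream end of 278 bases in all 4 estimates, and the 15-base and 51-base inserts stay between 11% and 19%.

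In Sema6a, an exon of 51 coding bases was in 24.1% of complete coding TPM in replicate 1 and 33.7% in replicate 2, and an exon of 165 coding bases in 81.8% and 82.2%. Sema6c almost always lacked an exon of 96 coding bases, which was in 2.15% and 0% of its complete coding TPM. In Sema5b an 87-base extension was in 14.3% and 33.4%, and in Sema3f a 93-base exon was in 54.0% and 22.2%. The last pair differs by more than any other segment between libraries and rests on the 99 and 59 reads of the whole gene.

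The libraries were compared by the ratio of replicate 1 to replicate 2 in expected counts, scaled by TMM, with an exact 95% interval that covers counting error only. With 1 library on each side this is a description of these libraries, without a test. Over 1.2-fold apart were 7 of 31 members (22.6%), against 21.1% of the 14715 genes with a mean of at least 1 TPM and at least 50 summed counts; 11.6% of those genes were higher in replicate 1 and 9.51% in replicate 2. The share of members was thus near that of all genes. Their median log2 ratio was -0.08, against -0.01 over all genes.

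Higher in replicate 1 were Sema3b (log2 ratio 1.11, 2.16-fold, interval 1.59 to 2.99), Sema3f (0.63, 1.55-fold, interval 1.11 to 2.18), Nrp1 (0.39, 1.31-fold, interval 1.25 to 1.37) and Sema3g (0.30, 1.23-fold, interval 1.03 to 1.48). The choroid plexus and the fibroblast and meningeal marker lists, given above, were also higher in replicate 1. So were CA3 markers, with summed TPM of 188 in replicate 1 and 159 in replicate 2 and 6 of 6 higher in replicate 1, and interneuron markers, with 435 and 362 and 7 of 8 higher in replicate 1. Oligodendrocyte precursor markers summed to 214 and 195 TPM, with 4 of 5 higher in replicate 1, and Cajal-Retzius markers to 66.4 and 58.4 TPM, with 4 of 6. On TMM-scaled counts the median log2 ratio of each of these 2 lists was -0.04. The part of any of the lists in the differences was not tested. Summed TPM of 7 endothelial markers was 105 in replicate 1 and 106 in replicate 2, with 3 of 7 higher in replicate 1. For 7 mural cell markers the sums were 103 and 96.5, with 6 of 7 higher in replicate 1; Acta2 had a log2 ratio of 0.53 and Pdgfrb of -0.52. The sums and counts of these lists are in TPM, whereas the members were called on TMM-scaled counts. On scaled counts the median log2 ratio was 0.14 for CA3, 0.15 for interneuron, -0.14 for endothelial and 0.02 for mural markers. The CA3 marker Iyd had -0.09 on that scale. Under total counts Sema3b, Sema3f, Nrp1 and Sema3g all stayed over 1.2-fold apart, and in the second quantification Sema3g did not.

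Higher in replicate 2 were Sema5a (log2 ratio -0.36, a fold of replicate 2 over replicate 1 of 1.28, interval 1.25 to 1.32), Sema4c (-0.33, 1.26-fold, interval 1.11 to 1.43) and Sema3a (-0.37, 1.29-fold, interval 0.985 to 1.70). The interval of Sema3a includes 1. Sema4c was not over 1.2-fold apart when scaled by total counts, and its TPM was close in both libraries. Of the dentate granule markers, 5 of 6 had a lower TPM in replicate 1, as Sema5a did. So did 5 of 7 astrocyte markers, with summed TPM of 1840 in replicate 1 and 2147 in replicate 2, 5 of 6 microglia markers, with 155 and 173, and 4 of 6 CA1 markers, with 198 and 223. Their part in the differences was not tested. The remaining 24 members lay within 1.2-fold, and 10 of the 11 receptors were among them.

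**Figure D5:**
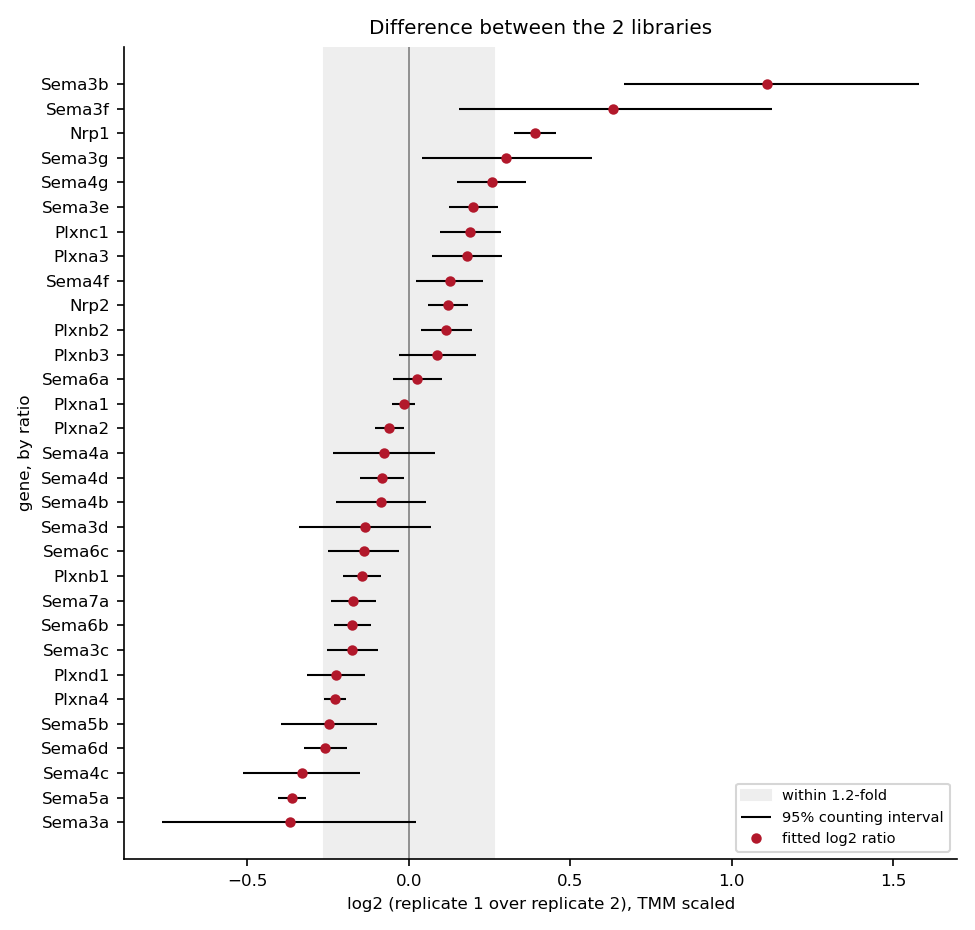
Log2 ratio of replicate 1 over replicate 2 for each member, with its 95% counting interval; the grey band marks 1.2-fold. Sema3b and Sema3f lie farthest to the right with wide intervals, and Nrp1 and Sema5a lie outside the band with narrow ones.

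Most members shared little sequence with other genes. Of the 31, 23 shared under 1% of their 31-base words with any other annotated gene. The highest shares were 8.57% for Plxna1, with the opposite-strand gene Gm26811 at 0 TPM in both libraries, and 6.45% for Sema4c, with the opposite-strand gene D430040D24Rik at 0.33 TPM in replicate 1 and 0.71 TPM in replicate 2. Use of strand in counting was not given in the sources used here, so reads from these overlaps cannot be assigned to a strand.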

How the data were processed

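Gene and transcript tables were used from 2 libraries, on mm10 and GENCODE M21 per the submitters' processing notes. The deposited first quantification gives expected counts, TPM and the percent of a gene's TPM per transcript; the deposited second one, on transcripts alone, gives estimated counts and its own TPM, per the file headers. Aligner, tool versions and use of strand were not given in the sources used here. Length and effective length differed by 99 in the first and by 343.1 and 346.1 in the second. Nuclear protein-coding genes held 45.0% and 42.9% of TPM in the first quantification and 74.0% and 70.8% in the second, so its TPM values are mostly higher; among the members Plxnb2 was lower in both libraries and Sema3b in replicate 2.

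Levels are means ± SD over libraries (n = 2), and SDs of n = 2 are imprecise. Ratios used expected counts, TMM factors (edgeR 4.0.16, R 4.3.3) and a prior count of 0.5, with Clopper-Pearson intervals at 95%, which cover counting error only since reads are not independent molecules. Transcript classes and coding segments came from the annotation. Ratio calculations were tested on simulated data. Members, lists and thresholds were chosen with earlier results of these data known. Every member is named; of each partner list the 3 highest and the lowest genes are named. Mapping of CAST/EiJ alleles was not examined. Tables were processed with Python 3.11.15, pandas 2.3.3, scipy 1.17.1 and matplotlib 3.10.9.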

Additional observations from a re-analysis of the deposited data

How the results depend on the processing

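With 1 group of 2 libraries, no paired analysis was possible because there is no second group. All 31 members stayed detected at 0.5 TPM, in the second quantification and in either library alone, and 26 did at 5 TPM. The median level was 29.4 TPM in the second quantification, 45.6 TPM rescaled over nuclear protein-coding genes, and 40.5 TPM with both (the last chosen after seeing the data); single libraries gave 17.9 to 22.4 TPM. The semaphorin over receptor ratio was 1.31 in the second quantification and turned to 0.707 in expected counts; single libraries gave 1.13 to 1.27. Expected counts also turned Sema4d over Plxnb1 (0.740), Sema6b over Plxna4 (0.351) and Nrp2 over Nrp1 (1.12) to the other side of 1; the deposited counts are not divided by length. In the second quantification the shares of classes 3 to 7 were 12.4%, 33.8%, 11.5%, 32.6% and 9.67%, and those of plexin-A, plexin-B and plexin-D 64.0%, 25.9% and 5.32%. From protein-coding transcripts only they were 13.4%, 29.5%, 10.9%, 33.8% and 12.3%, and 65.0%, 24.7% and 5.36%. Single libraries gave shares of 12.5% to 13.1%, 30.9% to 31.7%, 12.1% to 13.5%, 32.7% to 32.8% and 10.3% to 10.4% for classes 3 to 7, 60.6% to 62.0% for plexin-A, 27.4% to 28.3% for plexin-B, 4.17% to 4.96% for plexin-C, 6.21% to 6.49% for plexin-D and 36.2% to 40.3% for Nrp2. Past 1.5-fold lay 2 members, Sema3b and Sema3f, against 4.18% of all genes, since that limit is stricter. DESeq2 size factors (version 1.42.0) gave 8, against 21.01% of genes, adding Sema4g. Total counts gave 10, against 23.7%, adding Plxna3, Plxnc1, Sema3e and Sema4g and losing Sema4c. The second quantification gave 6, against 19.9%, losing Sema3g. A prior count of 5 gave 7, against 20.3%, and no filter gave 7, against 49.1% of genes with any count. Replicate SDs from 2 libraries limit every ordering of close levels, and the class 3 genes under 4 TPM rest on the fewest reads.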

Other observations

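Some genes named like the members lie outside the rule. Plxdc1 and Plxdc2, plexin domain containing proteins, had 3.42 and 11.7 TPM in replicate 1 and 3.53 and 12.3 TPM in replicate 2. Of the antisense genes of Plxna4, Plxna4os1 had 0.12 TPM in replicate 1 and 0.07 TPM in replicate 2, Plxna4os2 was listed at 0 TPM and 0.02 TPM, and Plxna4os3 was listed at 0 in both. The other guidance genes were led by Epha4, an Eph receptor, with 157 TPM in replicate 1 and 163 TPM in replicate 2, above every member, and were lowest for Epha1 with 0.31 and 0.14 TPM.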
